A study of Rattus norvegicus with 5 samples.

Results

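The transcripts described here are those of 4 genes that make, load and sense gamma-aminobutyric acid (GABA), chosen by name out of 35495 features in the deposited tables. They are Gad1 (ENSRNOG00000000007), Gad2 (ENSRNOG00000018200), Slc32a1 (ENSRNOG00000015393) and Gabbr1 (ENSRNOG00000000774). All 4 were found in the tables, and 3 of them passed the filter on low counts. The libraries came from microglia that were isolated on Percoll gradients from the brains of male Sprague Dawley rats. Their dams had been injected in the tail vein on gestational day 8.5 with an adenovirus. In the control group it was the empty vehicle virus (2 libraries, control 1 and control 3), and in the CYP11A1 group it carried the CYP11A1 cDNA behind a CMV promoter (3 libraries, CYP11A1 1, 2 and 3). Both viruses carried a green fluorescent protein tag. The offspring were 6 to 8 weeks old by the methods and 3 months old by the labels. Of the 3 rats in the control group, 1 was not analysed here. The offspring themselves received no virus by injection, and the sources used here do not say whether the sequenced rats came from separate litters. The p-values therefore measure the spread between these libraries only.

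GABA is the main inhibitory transmitter of the adult brain. It is made from glutamate by the glutamic acid decarboxylases encoded by Gad1 and Gad2, and it is loaded into synaptic vesicles by the transporter encoded by Slc32a1. These 3 genes are classical markers of inhibitory neurons. Gabbr1 encodes a subunit of the metabotropic GABAB receptor, which signals through G proteins and is found on neurons and, at lower levels, on glia. The study's own measurements of GABA receptors concerned the ionotropic GABAA type. From the microglial sequencing, the study also reported a pathway enrichment for the GABAergic synapse after CYP11A1 overexpression. That enrichment was not tested again here. The question asked here was whether transcripts for synthesis, packaging and GABAB sensing differed between the offspring groups.

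The sequence before each gene is shown as background, and any part of it in the counts was not tested. The sequences are RefSeq entries on build GRCr8, all 4 genes were matched by symbol, and they were not read from these animals. Their positions are not those of the counted features, whose build is not given in the sources used here. They were cut to the bases that lie outside the annotated gene and within 250 bases before the start site in the table. Capitals mark the motifs searched, on both strands. They were the TATA box, with the letters TATAAA, the GC box, with the letters GGGCGG, and the box with the letters CCAAT. The cAMP response element, the binding site of CREB, was searched with the letters TGACGTCA. Its half-site was searched with the letters TGACG and is contained in it. The 58 bases before Gad1 (chr3:75777202-75777259, plus strand), the 250 before Gad2 (chr17:89671468-89671717, plus strand), the 250 before Slc32a1 (chr3:167686995-167687244, plus strand) and the 134 before Gabbr1 (chr20:1499353-1499486, minus strand) read as follows.
Gad1: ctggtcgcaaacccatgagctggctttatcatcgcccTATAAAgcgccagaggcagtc
Gad2: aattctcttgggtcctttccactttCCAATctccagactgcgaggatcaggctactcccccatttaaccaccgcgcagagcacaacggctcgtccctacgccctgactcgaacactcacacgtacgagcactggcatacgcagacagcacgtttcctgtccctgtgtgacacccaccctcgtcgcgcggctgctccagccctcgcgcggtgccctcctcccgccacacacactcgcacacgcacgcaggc
Slc32a1: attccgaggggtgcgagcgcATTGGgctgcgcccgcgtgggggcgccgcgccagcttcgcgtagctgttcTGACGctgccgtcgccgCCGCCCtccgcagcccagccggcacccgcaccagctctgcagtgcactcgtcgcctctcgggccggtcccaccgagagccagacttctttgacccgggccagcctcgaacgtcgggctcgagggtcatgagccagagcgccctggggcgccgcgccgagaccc
Gabbr1: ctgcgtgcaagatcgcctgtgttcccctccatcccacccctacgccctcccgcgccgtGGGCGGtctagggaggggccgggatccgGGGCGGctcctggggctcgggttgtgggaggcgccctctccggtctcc

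The windows differed in the motifs they held. Over the full 250 bases, Gad1 held 1 TATA box and 1 GC box, Gad2 held 1 CCAAT box, Slc32a1 held 1 each of the CCAAT box, the GC box and the half-site, and Gabbr1 held 4 GC boxes. None of these motifs was found in all 4 windows. Among 33469 rat promoters, the TATA box occurred in 12.9%, the GC box in 30.5%, the CCAAT box in 34% and the half-site in 18.2% of windows of this length. The full cAMP response element, in 1.59% of them, was in none of the 4. All 4 windows were rich in CpG, with 23 in Gad1, 22 in Gad2, 34 in Slc32a1 and 26 in Gabbr1, against a median of 5 over all promoters. In this annotation no other gene overlapped any of the 4, and the gene next to Gabbr1 on one side was Mog, a myelin gene.

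Control 1 and CYP11A1 3 stood apart from the other 3 libraries along the first principal component, which held 40.9% of the variance, and the comparison between the groups is given with and without them.

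Gad1, the decarboxylase present throughout the cell body, was counted in 3 of the 5 libraries. Control 1 had 0 counts and control 3 had 88, against 9, 213 and 0 in CYP11A1 1, 2 and 3. After scaling to library size with TMM factors, these were 0, 8.63, 1.33, 15.03 and 0 CPM in the same order (CPM puts the libraries on one scale of depth). One control and one CYP11A1 library were thus high, and one of each group had no read. A floor of 3 counts per library corresponds to 0.228 CPM in control 1 and 0.194 CPM in CYP11A1 3. Against this floor, Gad1 was at least 37.8-fold lower in control 1 than in control 3, and at least 77.4-fold lower in CYP11A1 3 than in CYP11A1 2. These bounds take the counts of the high libraries as they stand, and the 2-sided intervals in the plot of CPM by library reach somewhat higher for a count of 0.

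Gad2, the decarboxylase concentrated at nerve terminals, had the same 2 high libraries. It was counted 0 and 81 times in control 1 and control 3, and 7, 151 and 10 times in CYP11A1 1, 2 and 3, or 0, 7.95, 1.03, 10.7 and 0.647 CPM. It differed from Gad1 in CYP11A1 3, where it had 10 counts (exact 95% Poisson interval 4.80 to 18.4) and Gad1 had 0. The feature counted for Gad2 is 5561 bp long, and that for Gad1 2671 bp.

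Slc32a1, the vesicular transporter, was close to the limit of detection. It had 4 counts in control 3, 3 in CYP11A1 2 and 0 in each of the other libraries, which is 0.392 CPM and 0.212 CPM in the libraries with reads. These were the same 2 libraries that were high in Gad1 and Gad2. With 7 reads in all it did not pass the filter, and any difference between the groups rests on these few reads.

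Gabbr1, the GABAB receptor subunit, was the most counted of the 4, with 351 reads in all, and the only one counted in every library. The controls 1 and 3 had 7 and 120 counts, and CYP11A1 1, 2 and 3 had 14, 202 and 8, or 0.533, 11.8, 2.07, 14.3 and 0.518 CPM. The order from the highest library was CYP11A1 2, control 3 and CYP11A1 1, with control 1 and CYP11A1 3 within each other's counting interval at the bottom.

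**Figure D1:**
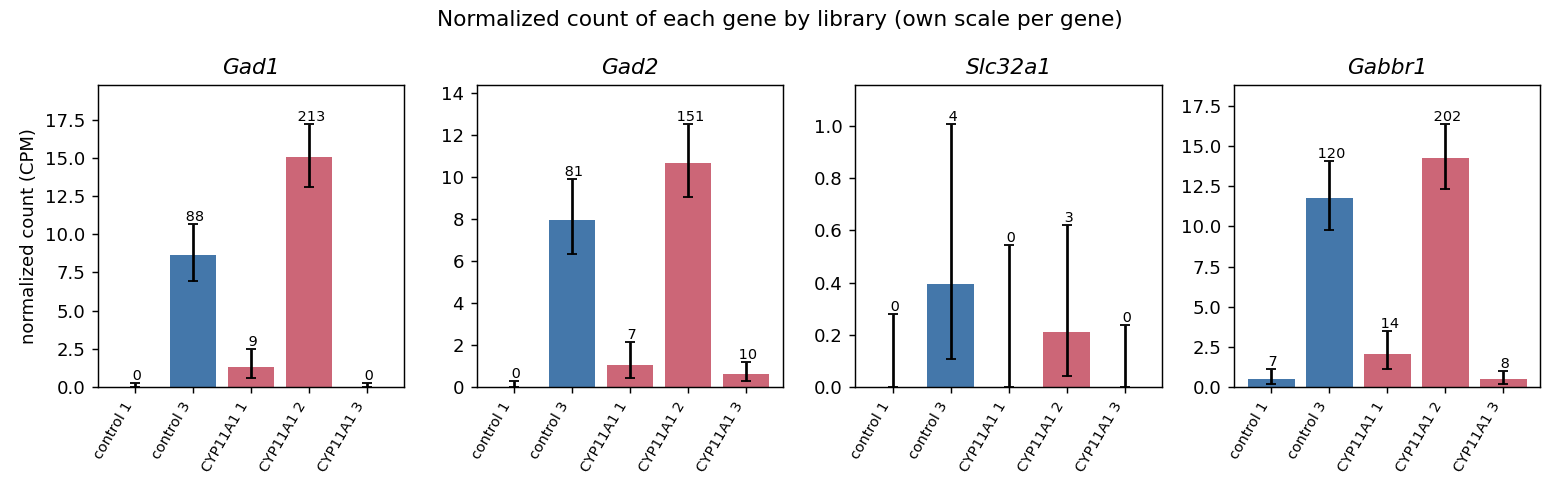
Normalized count (CPM, vertical axis, a separate scale for each gene) in each library, controls in blue and CYP11A1 in red, with the raw count above each bar and exact 95% Poisson intervals as error bars, which cover counting error only. Control 3 and CYP11A1 2 carry most of the counts of every gene, whereas control 1 is at 0 to 7 counts and CYP11A1 3 at 0 to 10.

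Levels of different genes were compared per feature length, on the FPKM scale of the deposited table. In control 3 the order was Gabbr1 (4.60 FPKM), Gad1 (3.42), Gad2 (1.51) and Slc32a1 (0.174). In CYP11A1 2 it was Gad1 (7.59 FPKM), Gabbr1 (7.09), Gad2 (2.58) and Slc32a1 (0.120). Gad1 and Gabbr1 were close neighbours in this order. Their ratio (Gabbr1 to Gad1) was 1.34 in control 3 (95% binomial interval 1.01 to 1.79) and 0.935 in CYP11A1 2 (0.767 to 1.14). The intervals overlapped, but overlap is no test, and whether the ratios differ was not tested.

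Gad1 stood above Gad2 per length in control 3 and CYP11A1 2. In reads they were closer, with 88 against 81 in control 3 and 213 against 151 in CYP11A1 2. The ratios therefore lean on the feature lengths of 2671 and 5561 bp. Their intervals do not cover an error in these lengths. The ratio of Gad1 to Gad2 was 2.26 (1.65 to 3.10) in control 3 and 2.94 (2.37 to 3.64) in CYP11A1 2. These 2 intervals overlapped, and a difference between the ratios was likewise not tested. In CYP11A1 1 it was 2.68, but with 9 and 7 reads the interval reached from 0.887 to 8.46. In CYP11A1 3 the order was the other way, with Gad2 at 0.136 FPKM and Gad1 listed at 0. The transporter lay below both enzymes that make its cargo. Gad1 exceeded Slc32a1 by a ratio of 19.6 (7.41 to 73.7) in control 3 and of 63.4 (21.4 to 309.9) in CYP11A1 2. Gad2 exceeded it by a ratio of 8.68 (3.26 to 32.6) in control 3 and of 21.6 (7.25 to 105.8) in CYP11A1 2. In control 3, 73.6% of the detected features had a lower FPKM than Gad1, 58.2% a lower one than Gad2, 18% a lower one than Slc32a1 and 77.9% a lower one than Gabbr1. In control 1, only 21.1% had a lower FPKM than Gabbr1.

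**Figure D2:**
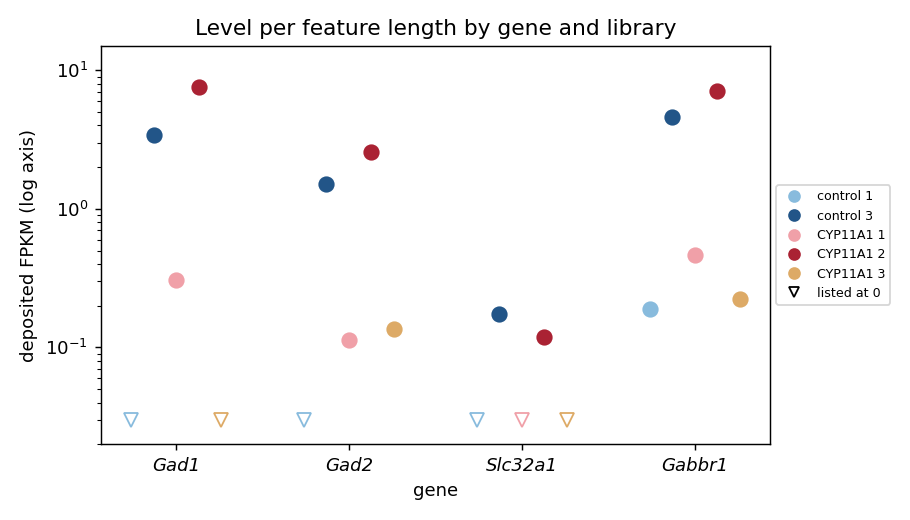
Deposited FPKM (vertical log axis) of each gene (horizontal axis) in each library, with open triangles at the bottom for libraries listed at 0. Slc32a1 lies under 0.2 FPKM in every library, and Gad1, Gad2 and Gabbr1 are above 1 FPKM in control 3 and CYP11A1 2 only.

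The group means were close beside the spread within each group. Gad1 was 4.32 ± 6.11 CPM (SD, n = 2) in the control group and 5.45 ± 8.32 CPM (SD, n = 3) in the CYP11A1 group. Gad2 was 3.97 ± 5.62 CPM against 4.11 ± 5.67 CPM, and Gabbr1 was 6.15 ± 7.95 CPM against 5.61 ± 7.52 CPM. Slc32a1 was 0.196 ± 0.278 CPM against 0.0706 ± 0.122 CPM. The groups overlapped in all 4 genes. That was the usual outcome, since only 14.4% of the 10346 features tested had groups that did not overlap. Slc32a1 was not among the features tested.

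None of the 3 genes tested passed the threshold. In edgeR's quasi-likelihood test, the log2 fold change of Gad1 (CYP11A1 against control) was 0.42 ± 1.59 (SE), with a 95% interval from -3.05 to 3.89 and an adjusted p of 0.9998. For Gad2 it was 0.14 ± 1.44 (SE; interval -2.999 to 3.29; adjusted p 0.9998 in the same test). For Gabbr1 it was -0.07 ± 1.34 (SE; interval -2.98 to 2.84; adjusted p 0.9998 in the same test). The unadjusted p-values in edgeR's test were 0.797, 0.922 and 0.959, so that 0 of 3 were also called without adjustment, and DESeq2 and limma called none of them. The background in the same edgeR fit was 0% of 10346 features called at an adjusted p under 0.05 and 4.26% (441 features) at an unadjusted p under 0.05, and DESeq2 called 0.115% of the 10427 features it adjusted. The intervals span more than 5 log2 units, so these data do not show that the groups are alike. The median log2 fold change of all features tested was 0.15.

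The exact permutation test on log2(CPM + 1), which includes Slc32a1, gave a difference (CYP11A1 minus control) of 0.11 for Gad1 (p = 1, two-sided), 0.18 for Gad2 (exact p = 0.9), -0.15 for Slc32a1 (exact p = 0.7) and -0.10 for Gabbr1 (exact p = 0.9). With 10 ways to draw 2 of 5 libraries, 0.1 is the smallest p possible, so that no result could have passed 0.05.

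The sign of each difference turned on single libraries. Without control 1, the log2 fold change was -0.66 for Gad1, -0.93 for Gad2 and -1.07 for Gabbr1. Without control 3, it was 3.46 for Gabbr1, and Gad1 and Gad2 had no read left in the control group. Without CYP11A1 2, it was -2.48 for Gabbr1, and Gad1 and Gad2 no longer passed the filter. Without CYP11A1 1, the log2 fold change was 0.86 for Gad1, 0.57 for Gad2 and 0.31 for Gabbr1. Without CYP11A1 3, it was 1.03, 0.69 and 0.50 in the same order. The adjusted p in edgeR's test was at least 0.645 in all of these fits.

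**Figure D3:**
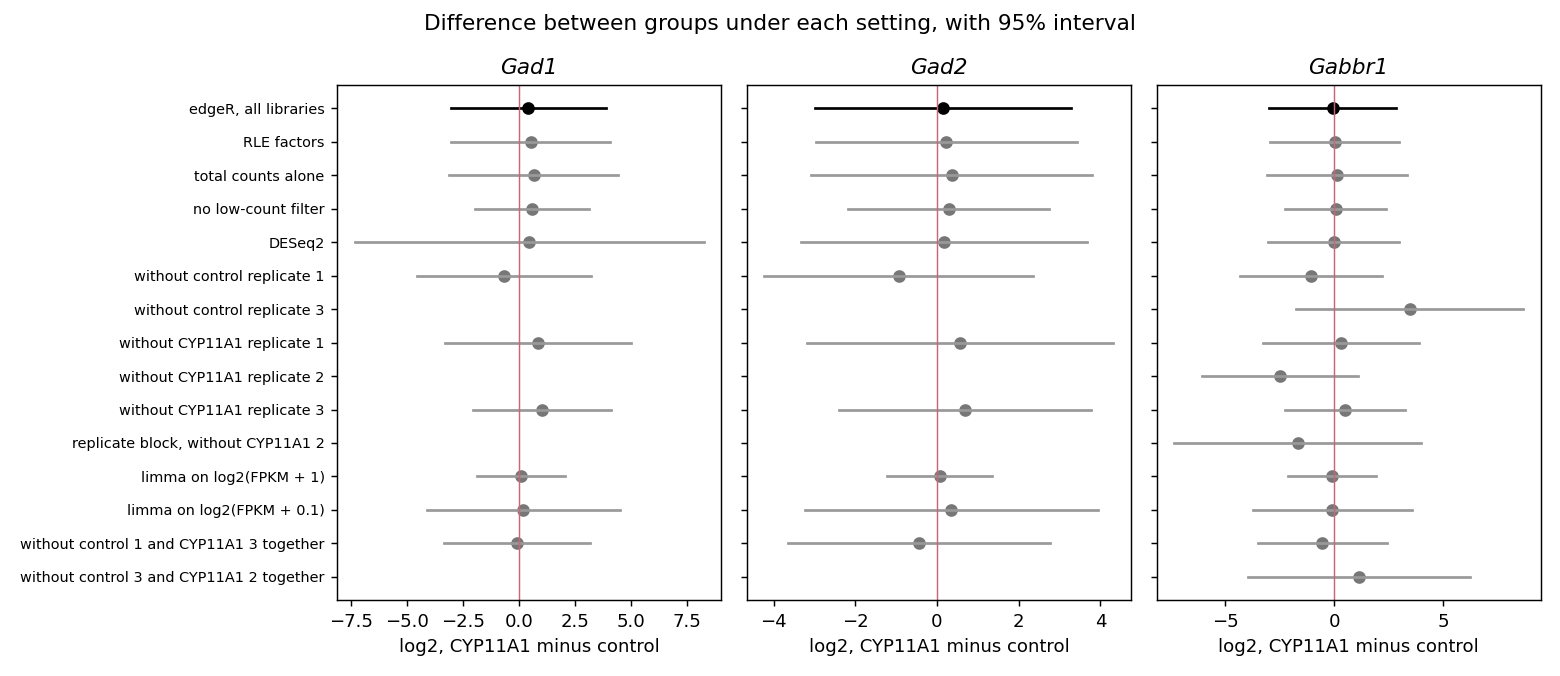
Log2 difference between the groups (horizontal axis, CYP11A1 minus control) for Gad1, Gad2 and Gabbr1 under each setting (vertical axis), with 95% intervals, black for the edgeR test on all libraries. A setting has no point where the gene did not pass the filter or where a group was left without a read, and every interval shown crosses 0.

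Each high library was set against the low libraries of its own group and against the other high library. Gabbr1 was 22.1 times higher in control 3 than in control 1 (95% binomial interval 10.4 to 56.2), 6.89 times higher in CYP11A1 2 than in CYP11A1 1 (4.01 to 12.8) and 27.5 times higher in CYP11A1 2 than in CYP11A1 3 (13.7 to 64.7). Across the groups, CYP11A1 2 exceeded control 3 by 1.21 times (0.961 to 1.53) in Gabbr1, by 1.34 times (1.02 to 1.78) in Gad2 and by 1.74 times (1.35 to 2.26) in Gad1. The interval of Gabbr1 includes 1. In Slc32a1 the ratio was 0.539 (0.079 to 3.19), from 3 and 4 reads. These intervals cover counting error only and compare libraries, not conditions. CYP11A1 1 was 11.3 times below CYP11A1 2 in Gad1 (5.85 to 25.1) and 10.3 times below it in Gad2 (4.88 to 26.1). In Gad2 it could not be told from CYP11A1 3, with a ratio of CYP11A1 1 to CYP11A1 3 of 1.60 (0.516 to 4.65), and in Gabbr1 it was 3.99 times higher than CYP11A1 3 (1.56 to 10.99).

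Control 3 and CYP11A1 2 together held 94.7% of the summed CPM of Gad1, 91.7% of that of Gad2 and 89.3% of that of Gabbr1, and all 7 reads of Slc32a1. Over the 10346 features tested, the median share of these 2 libraries was 38.5%, with quartiles of 27% and 56.4%. A share as high as that of Gad1 was found in 3.32% of features, one as high as that of Gad2 in 4.48% and one as high as that of Gabbr1 in 5.43%. The 2 libraries were set apart because these genes were high in them, so the high share was largely fixed beforehand. Gad1 and Gad2 also did not pass the filter without CYP11A1 2. The share, and the order of libraries given below, are therefore a description and not a test. Of the 10 possible pairs of libraries, this pair was the highest 2 for the most features, with 2078 of them (20.1%). On the TMM scale, the order CYP11A1 2, control 3 and CYP11A1 1 at the top was seen in Gad1, Gad2 and Gabbr1 and in 6.40% of features (662, these genes included). For Gad2, the third place turned with the scaling, since CYP11A1 3 (0.136 FPKM) was above CYP11A1 1 (0.114 FPKM) in the deposited table.

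**Figure D4:**
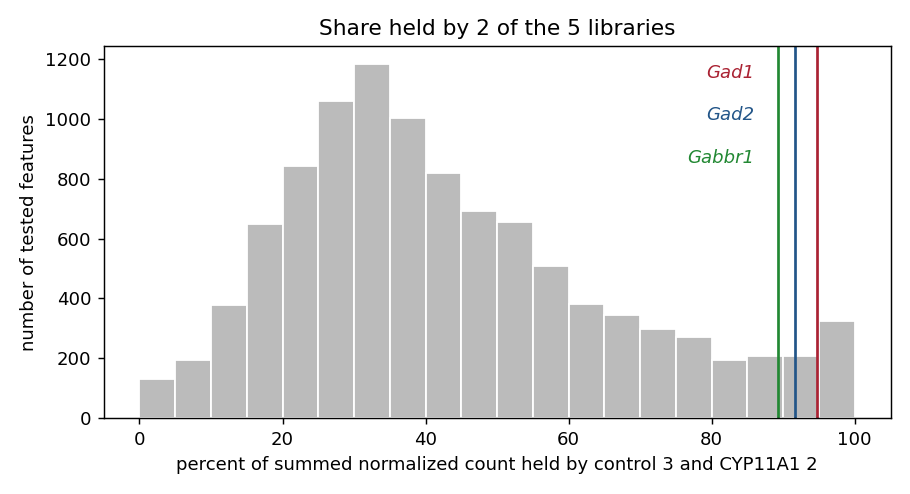
Number of tested features (vertical axis) by the percentage of their summed CPM that control 3 and CYP11A1 2 held (horizontal axis, bins of 5 percentage points), with lines for Gad1, Gad2 and Gabbr1. The 3 genes lie between 89.3% and 94.7%, to the right of the median of 38.5%. The 2 libraries were set apart because these genes were high in them, so this position is no test.

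The likeness of profiles was measured as the Euclidean distance between log2(CPM + 1) values, each centred on its mean over the 5 libraries. Gad1 lay at a distance of 0.556 from Gabbr1 and Gad2 at 0.604, against a median of 3.42 for all other features. Of 10345 other features, 24 were nearer to Gabbr1 than Gad1 was and 30 were nearer than Gad2 was. The distance between Gad1 and Gad2 was 0.882, with 52 features nearer to Gad1 than Gad2 was. Gad1 and Gad2 did not pass the filter without CYP11A1 2. Nearness to another gene that was high in control 3 and CYP11A1 2 was therefore largely fixed beforehand. The distances are a description over 5 libraries and not a test, and the nearer features have no symbol in the tables used here.

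The libraries also differed as a whole. Control 1 and CYP11A1 3, in which Gad1 was at 0 and Gabbr1 lowest, had the highest total counts (13624545 and 13238480) but only 12042 and 10766 features with a count. Gad1, Gad2 and Gabbr1 were highest in control 3 and CYP11A1 2, which also held every read of Slc32a1. These libraries had totals of 9623896 and 10509716 and 14953 and 16969 features with a count. CYP11A1 1 had 15828 such features but few GABA reads, and its TMM factor was the lowest at 0.615. Its 10 most counted features took 65.4% of its counts. That share was 59.9% in control 3, 53.5% in CYP11A1 2, 50.1% in control 1 and 37.5% in CYP11A1 3. Without control 1 and CYP11A1 3 together, the log2 fold change in edgeR's test was -0.09 for Gad1, -0.44 for Gad2 and -0.54 for Gabbr1 (adjusted p 0.9997 for each). The part of these differences between libraries in the GABA transcripts was not tested. Apart from Gad1, Gad2 and Slc32a1, no markers of neurons were analysed here, and none of microglia. The label of the cells was therefore not checked from these counts. In such bulk samples, fewer cells of a type and less RNA per cell cannot be told apart.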

How the data were processed

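RNA of microglia from male offspring was sequenced in 5 libraries, 2 control and 3 CYP11A1. The authors deposited raw read counts per feature and FPKM (counts divided by library total and feature length). The submitters' processing notes name HISAT2 2.0.4 and HTSeq 0.9.1, without their role. By the methods, full-length cDNA was amplified from small amounts of RNA, without molecular identifiers, whereas the labels name a small RNA kit. The genome build and annotation were not given in the sources used here. Feature lengths were recovered from the 2 tables. Total counts ranged from 9623896 to 13624545 per library.

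Groups came from the sample labels and columns from the sample titles. The 35495 features were filtered with filterByExpr (minimum count 10), scaled with TMM factors and compared with the quasi-likelihood test of edgeR 4.0.16 in R 4.3.3. Benjamini-Hochberg adjustment covered all 10346 features tested, with a threshold of 0.05, and the interval of a fold change is at the 95% level. The procedure was tested on simulated data, and no outcome of that test is given here. CPM is the count relative to the library total times its TMM factor. Intervals for a single library are exact Poisson or binomial limits at the 95% level and cover counting error only. Exact permutation tests were two-sided, over the 10 ways to assign 2 of the 5 libraries to the control group. Alternatives used DESeq2 1.42.0, limma 3.58.1 on log2 FPKM, other factors and filters, a replicate block, and fewer libraries. Figures were drawn with matplotlib 3.10.9 under Python 3.11.15.

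The 4 genes and the lists were chosen with earlier results of these data known. The rule for named genes was these 4, the best counted genes of 6 lists of GABA genes, and the 3 named features nearest in profile to the most counted of the 4. The lists of GABA genes and of cell type markers were not analysed here. No table used here pairs Ensembl identifiers with symbols (0 matched), and the pairs for the 4 genes came with the choice of the genes.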

Additional observations from a re-analysis of the deposited data

How the results depend on the processing

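For Gad1, Gad2, Slc32a1 and Gabbr1, no alternative gave an adjusted p under 0.05. For Slc32a1 this was an exact p, apart from 2 settings. With no low-count filter its log2 fold change was -0.99 (adjusted p 0.96 in edgeR's test). In DESeq2 it was -1.31, with no adjusted p given. The sign of Gabbr1 turned in 7 of 14 alternatives. Its log2 fold change was -0.07 with all libraries, 0.018 with RLE factors, 0.14 on total counts alone and 0.075 with no low-count filter, and it ranged from -2.48 to 3.46 as each library was left out. Gad1 ranged from -0.66 to 9.22 and Gad2 from -0.93 to 8.81 in the same way. The upper ends come from the fit without control 3, where the control group had no read and the fitted value depends on the prior count. The difference of Slc32a1 on the log2(CPM + 1) scale ranged from -0.39 to 0.10 as each library was left out. The cause of these turns was not tested.

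Chosen after seeing the data, leaving out control 1 and CYP11A1 3 together turned Gad1 to -0.086 and Gad2 to -0.44, and leaving out control 3 and CYP11A1 2 together turned Gabbr1 to 1.14. With no low-count filter 10 features were called, and DESeq2 called 12, against 0 with edgeR's test after its filter (441 at an unadjusted p under 0.05). Leaving out single libraries gave 0 features throughout, a fit with 1 control left assuming that it varies like the CYP11A1 libraries.

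A fit with a replicate block, which takes numbers 1 and 3 in each group and drops CYP11A1 2, called 0 features (101 at an unadjusted p under 0.05), and Gabbr1 was at -1.68 (adjusted p 0.9998 in edgeR's test). Same-numbered libraries deviated from their group means with r = -0.266 across features. With 2 libraries left per group, numbers 1 and 3 give the same value by construction. This single value does not settle whether the numbers pair animals. The crossed pairing gave 0 features (355 unadjusted). None of the 4 genes had at least 10 counts in every library, so that filter gave no value for them. The alternatives planned for the lists of GABA genes were not run, for want of symbols. Slc32a1 had only 7 reads in all, every one in control 3 or CYP11A1 2. Its exact test on all libraries could not give a p under 0.1. The other 3 genes had a wide spread between libraries.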
